A study of Mus musculus with 28 samples.

Results

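The genes described here are 10 that mark lipid-associated and repair-type macrophages: Trem2, Gpnmb, Spp1, Fabp5, Apoe, Lpl, Lgals3, Cd36, Fn1 and Arg1. They were taken as the rows of the deposited tables whose gene symbol equals 1 of these names, 10 of 10523 genes listed for sorted kidney macrophages and 9 of 12315 listed for whole kidney, where Arg1 has no row. The genes were chosen by their known role with their measured levels in these libraries already in view, and no measured value served as a threshold. An earlier account of these libraries had already drawn on Gpnmb in Fcgr2b-/- against wild-type kidney and on a lipid and lysosomal gene list in double-mutant against Fcgr2b-/- macrophages, so values in those 2 comparisons are given as a description without p-values. Since the genes were named with such results known, p-values elsewhere are no independent support. They set a difference of group means against the spread between libraries.

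The study sequenced polyA-enriched RNA in 28 libraries from female C57BL/6 littermates aged 7 to 9 months. The 4 genotypes were wild-type, Rhbdf2-/-, Fcgr2b-/- and the double mutant Fcgr2b-/- Rhbdf2-/-, with 4 libraries each from whole perfused kidney and 3 each from kidney macrophages sorted as CD45+, F4/80 high, CD11b+, Ly6G- and Ly6C-. No drug or other treatment is named for any group, and neither the labels nor the files state which part of either gene was deleted. The labels call the animals littermates but do not say that each library came from its own mouse, so the spread between libraries may be partly technical. Rhbdf2 encodes iRhom2, a membrane protein that escorts the sheddase ADAM17 to the cell surface, and Fcgr2b encodes the inhibitory receptor for IgG, whose loss on this background leads to lupus-like kidney disease. The comparison of double mutants with Fcgr2b-/- animals asks how the kidney and its macrophages differ when iRhom2 is also absent.

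Macrophages that take up lipid-rich debris from dying cells adopt a program named after the lipid-sensing receptor TREM2. In it, apolipoproteins, fatty acid carriers and lysosomal proteins are made together with secreted glycoproteins that bind integrins and matrix. The program is known from fat, atherosclerotic plaque, brain and scarred liver and lung, and injured kidney holds such cells as well. Several of the genes are not restricted to macrophages: tubule epithelium makes osteopontin from Spp1, fibroblasts make fibronectin from Fn1, and adipocytes and endothelial cells carry Lpl and Cd36.

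The sequences just upstream of Trem2, Gpnmb and Spp1 are shown because these 3 genes were high together in Fcgr2b-/- libraries of both tissues yet stood at different distances from wild-type in the double mutant, as the values below show. Each run is the 250 bases before the gene's RefSeq start on assembly GRCm38.p6, plus strand, at chr17:48346151-48346400 for Trem2, chr6:49036268-49036517 for Gpnmb and chr5:104434861-104435110 for Spp1. Capitals mark matches to any of 7 motifs searched on both strands.
Trem2: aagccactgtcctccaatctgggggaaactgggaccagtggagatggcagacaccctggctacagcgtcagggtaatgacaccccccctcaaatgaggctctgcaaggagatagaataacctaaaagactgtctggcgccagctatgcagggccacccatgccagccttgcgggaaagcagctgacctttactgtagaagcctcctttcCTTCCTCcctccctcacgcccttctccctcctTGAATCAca
Gpnmb: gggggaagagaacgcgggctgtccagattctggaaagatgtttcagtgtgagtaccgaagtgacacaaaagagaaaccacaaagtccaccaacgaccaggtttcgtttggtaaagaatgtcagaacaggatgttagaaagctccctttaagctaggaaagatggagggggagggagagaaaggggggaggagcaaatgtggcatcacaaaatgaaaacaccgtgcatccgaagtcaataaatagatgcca
Spp1: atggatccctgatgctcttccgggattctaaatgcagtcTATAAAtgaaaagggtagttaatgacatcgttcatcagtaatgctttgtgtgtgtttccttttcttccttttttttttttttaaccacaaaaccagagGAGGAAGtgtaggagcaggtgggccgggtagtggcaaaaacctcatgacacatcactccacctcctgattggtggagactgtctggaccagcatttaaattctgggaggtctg
In Trem2 the capitals are a PU.1 core (GAGGAAG, here on the minus strand) at -41 to -35 and an AP-1 motif (TGANTCA) at -9 to -3, counted from the start. In Spp1 they are a TATA box (TATAAA) at -211 to -206 and a PU.1 core at -113 to -107. The Gpnmb window held none of the 7. Among 32851 windows of the same length, 10.6% held the PU.1 core, 6.75% the AP-1 motif and 12.4% the TATA box. The other motifs were the MiT/TFE E-box CACGTG in 6.02%, an NF-kB motif in 0.365%, and the PPAR and LXR direct repeats in 0.0335% and 0.0152%. Promoter entries were found for 6 of the 10 genes. Of the others searched, an Apoe window held 2 overlapping TATA boxes at -100 to -95 and -96 to -91. That window begins at chr7:19698572, inside the Apoe span given below, so it precedes an internal start and not the 5' end of that span. These matches are letters in a window and were not tested as binding sites.

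On mm10 the files place Trem2 at chr17:48346401-48354147, Gpnmb at chr6:49036518-49058182, Spp1 at chr5:104435118-104441050, Fabp5 at chr3:10012548-10016607, Apoe at chr7:19696109-19699166 and Lpl at chr8:68880491-68907448. Lgals3 lies at chr14:47367751-47386160, Cd36 at chr5:17781690-17888959, Fn1 at chr1:71585520-71653200 and Arg1 at chr10:24915208-24927470. Each is a protein-coding gene measured over its exons. Spp1 overlaps the unspecified transcript Gm42793 and Fn1 overlaps Apol7d, which the GENCODE annotation calls antisense. Fabp5 has a processed pseudogene copy, and since the counting program and its use of strand are not given, reads shared with these features cannot be separated.

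The libraries held 29016105 to 41620058 reads in listed genes in kidney and 30850363 to 34871288 in macrophages, and levels are given as CPM, read counts scaled to a common library size, in which a single read was worth 0.0226 to 0.0354 in kidney libraries and 0.0277 to 0.033 in those of macrophages. Rhbdf2 and Fcgr2b still had reads in the libraries labelled as lacking them, at 13.4 to 15.5 CPM for Rhbdf2 in Rhbdf2-/- macrophages and 256 to 382 CPM for Fcgr2b in Fcgr2b-/- macrophages. In wild-type macrophages the ranges were 16.2 to 25 CPM and 539 to 715 CPM, so these counts neither check the labels nor go against them without the deleted part. Each genotype had a sequencing lane of its own in kidney, where effects of lane and of genotype cannot be told apart. The sorted cells had high Ptprc (CD45) and Emr1 (F4/80) in every group, with group means from 917 to 1628 CPM and 2077 to 3502 CPM. Ly6c1 stayed at group means of 2.25 to 10.5 CPM, and Ly6g and Ly6c2 have no row there. Itgam, which encodes CD11b, averaged 158 ± 56.8 CPM (SD, n = 3) in wild-type macrophages and 1213 ± 205 CPM in Fcgr2b-/- macrophages. The sorted cells also held tubule RNA: 6 of 7 thick limb, distal tubule and collecting duct markers were listed, and their summed level ran from 1667 to 7365 CPM in wild-type and from 392 to 1060 CPM in Fcgr2b-/- libraries. No podocyte or adipocyte marker has a row in the macrophage table.

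In sorted macrophages, 9 of the 10 genes rose in Fcgr2b-/- against wild-type, each without overlap between the 3 libraries of the groups, and none fell (limma on log2(CPM+1), Benjamini-Hochberg adjusted p below 0.05 over all 10523 genes). Of all genes tested, 24.2% were called higher and 28.5% lower in this comparison, and 27% lay above and 31.5% below without overlap. The median change of the 10 genes was 3.93 on the log2 scale, against -0.09 for all genes. As these are bulk libraries, a change in the share of cells that carry a gene and a change in RNA per cell cannot be told apart, here and below. The SE of each change is that of the limma fit, with n = 3 per group in macrophages and n = 4 in kidney.

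Trem2, the lipid-sensing receptor that names the program, was measured at 28.1, 22.3 and 27.3 CPM in the wild-type macrophage libraries and at 511, 629 and 871 CPM in Fcgr2b-/-. Every Fcgr2b-/- library lay far above every wild-type library, a rise of 4.61 ± 0.34 (SE) on the log2 scale (adjusted p = 2.64e-06). Double-mutant libraries held 199, 148 and 60 CPM, below all Fcgr2b-/- and above all wild-type libraries. Rhbdf2-/- cells, at 26.2, 20.8 and 25.9 CPM, overlapped wild-type. The double mutant differed from Fcgr2b-/- by -2.42 ± 0.34, while against wild-type Trem2 rose by 2.19 ± 0.34 (adjusted p = 0.0024).

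Apoe encodes the apolipoprotein E that carries lipid out of macrophages. Its 3 wild-type libraries were at 732, 674 and 866 CPM, and the Fcgr2b-/- libraries at 2030, 3631 and 4858 CPM. The rise was 2.13 ± 0.26 (adjusted p = 5.75e-05). Double-mutant Apoe was at 1351, 1139 and 1218 CPM, a narrow band between the other groups that overlapped neither. It differed from Fcgr2b-/- by -1.42 ± 0.26, and its difference of 0.71 ± 0.26 from wild-type did not pass the test (adjusted p = 0.0752).

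Lpl encodes lipoprotein lipase, which frees fatty acids from circulating triglyceride. It went from 697, 565 and 434 CPM in wild-type to 3456, 2542 and 2527 CPM in Fcgr2b-/- macrophages, a rise of 2.34 ± 0.22 (adjusted p = 1.3e-05). Lpl stayed high in the double mutant, at 1921, 1489 and 1782 CPM. That was a difference of -0.71 ± 0.22 from Fcgr2b-/- and a rise of 1.63 ± 0.22 over wild-type (adjusted p = 0.000991), with no overlap on either side.

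Fabp5, a cytosolic fatty acid carrier, was near the bottom of the measured range in wild-type cells, at 1.26, 1.44 and 1.12 CPM from 36 to 51 reads a library. Fcgr2b-/- libraries held 157, 345 and 214 CPM, a rise of 6.65 ± 0.80 (adjusted p = 5.17e-05). Double-mutant libraries were spread widely, at 96.3, 26 and 3.23 CPM, yet the lowest of them still lay above every wild-type library. Fabp5 differed from Fcgr2b-/- by -3.35 ± 0.80 and rose by 3.30 ± 0.80 over wild-type (adjusted p = 0.0186). That call ended without wild-type replicate 1 or 2 or double-mutant replicate 1, at adjusted p = 0.052 to 0.0684. Rhbdf2-/- libraries held 0.558 to 1.68 CPM. Genes had been filtered by a rule that is not given. The Fabp5 row may thus be listed only through Fcgr2b-/- and double-mutant libraries, so its p-values do not support a direction.

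Cd36, a scavenger receptor that takes up oxidised lipoprotein and fatty acid, went the other way from the rest. It was at 601, 501 and 1023 CPM in wild-type, 488, 497 and 408 CPM in Fcgr2b-/- and 677, 619 and 733 CPM in double-mutant macrophages. Fcgr2b-/- was thus the lowest group without overlap, but the difference of -0.55 ± 0.22 from wild-type missed the threshold (adjusted p = 0.0513). Without wild-type replicate 2 it passed (adjusted p = 0.014), as it did in the authors' deposited table (FDR 0.0408). Double-mutant Cd36 was 0.54 ± 0.22 above Fcgr2b-/- and did not pass against wild-type (difference of 0.00 ± 0.22, adjusted p = 0.999).

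Gpnmb, a glycoprotein of lysosomes and the cell surface, showed the largest change of the 10. Wild-type libraries held 0.615, 0.418 and 1.72 CPM, from 14 to 56 reads each, while Fcgr2b-/- libraries held 565, 2850 and 626 CPM. The rise was 9.09 ± 0.99 on the log2(CPM+1) scale (adjusted p = 2.79e-05), a scale that understates genes this low; the authors' deposited table gives 10.57. With voom on the recovered reads, which models the read noise of each value, the same change was not called (adjusted p = 0.0681). Double-mutant libraries, at 475, 139 and 13.5 CPM, covered a 35.1-fold range. Double-mutant Gpnmb differed from Fcgr2b-/- by -3.34 ± 0.99 and rose by 5.75 ± 0.99 over wild-type (adjusted p = 0.00419, and 0.284 with voom). The difference from Fcgr2b-/- was -1.96 without double-mutant replicate 3. Rhbdf2-/- libraries held 0.43 to 2.13 CPM. The Gpnmb row may thus have passed the unstated filter only through Fcgr2b-/- and double-mutant libraries, so its p-values do not support a direction.

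Spp1, which encodes osteopontin, a secreted ligand of integrins and CD44, was the most abundant of the 10 in Fcgr2b-/- macrophages. Its Fcgr2b-/- libraries were close together at 7858, 7837 and 9384 CPM, against 935, 665 and 241 CPM in wild-type, a rise of 3.97 ± 0.54 (adjusted p = 0.000108). Double-mutant libraries, at 766, 572 and 174 CPM, overlapped wild-type. Their difference from Fcgr2b-/- was -4.29 ± 0.54, and the difference of -0.32 ± 0.54 from wild-type did not pass (adjusted p = 0.702). The 2 wild-type libraries with the most Spp1 also had the highest distal tubule marker sums, at 7365 and 5503 CPM against 1667 CPM in the third. Double-mutant libraries did not follow that order, with sums of 497, 2441 and 447 CPM at 766, 572 and 174 CPM of Spp1. Rhbdf2-/- libraries had sums of 2899 to 3288 CPM at 438 to 813 CPM of Spp1. Fcgr2b-/- libraries, highest in Spp1, had sums of 392 to 1060 CPM. The part that tubule RNA plays in the low Spp1 values was not tested.

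**Figure D1:**
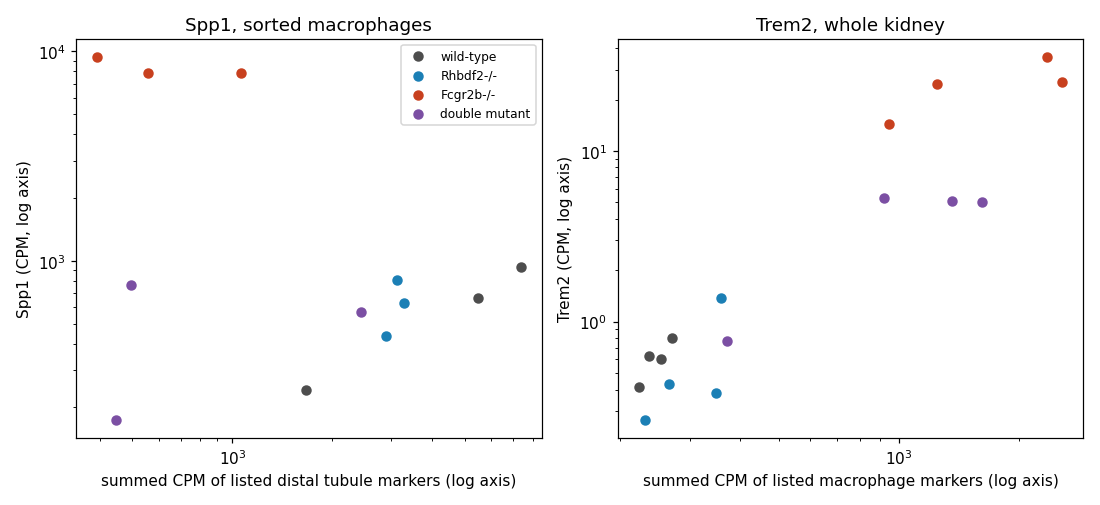
Left, Spp1 in CPM (log axis) against the summed CPM of the listed distal tubule markers (log axis) in the 12 macrophage libraries; right, Trem2 against the summed CPM of 10 macrophage markers in the 16 kidney libraries, 1 point per library coloured by genotype. On the left the 3 Fcgr2b-/- libraries combine the highest Spp1 (7837 to 9384 CPM) with marker sums of 392 to 1060 CPM; on the right Fcgr2b-/- kidneys hold 14.3 to 35.6 CPM of Trem2 at sums of 944 to 2576 CPM and double-mutant kidneys 0.771 to 5.31 CPM at sums of 372 to 1623 CPM.

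Fn1 encodes fibronectin, a matrix protein that some repair macrophages secrete. It was at 0.673, 0.557 and 1.57 CPM in wild-type and at 324, 206 and 389 CPM in Fcgr2b-/- macrophages, a rise of 7.30 ± 0.83 (adjusted p = 3.5e-05). Of 9 fibroblast markers only Acta2 has a row in this table, and Col1a1, Col3a1 and Pdgfra have none. Acta2 moved with Fn1, at 0.908 to 3.01 CPM in wild-type, 6.88 to 11.1 CPM in Fcgr2b-/- and 0.425 to 5.05 CPM in double-mutant libraries, and was called higher in Fcgr2b-/- than in both. The part of fibroblast RNA in the Fn1 level was not tested. Double-mutant values of 69.5, 9.42 and 1.74 CPM differed 39.8-fold among themselves. Fn1 differed from Fcgr2b-/- by -4.56 ± 0.83. It rose by 2.74 ± 0.83 over wild-type (adjusted p = 0.0391), but the call ended without any 1 of 7 libraries (wild-type replicates 1 and 2, Rhbdf2-/- replicates 1 and 2, Fcgr2b-/- replicate 2, and double-mutant replicates 1 and 2), at adjusted p = 0.0516 to 0.128. The change shrank to 1.50 without double-mutant replicate 1. Rhbdf2-/- libraries held 0.153 to 0.966 CPM of Fn1. Its row may thus have passed the unstated filter only through Fcgr2b-/- and double-mutant libraries, so its p-values do not support a direction.

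Lgals3 encodes galectin-3, a sugar-binding protein long used as a marker of activated macrophages. Its wild-type libraries held 218, 218 and 455 CPM and its Fcgr2b-/- libraries 2144, 2582 and 1870 CPM, a rise of 2.96 ± 0.26 (adjusted p = 8.27e-06). At 1159, 1423 and 877 CPM the double mutant lay between the other groups without overlap. It differed from Fcgr2b-/- by -0.95 ± 0.26 and had risen by 2.02 ± 0.26 over wild-type (adjusted p = 0.000809).

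Arg1, the arginase used as a marker of alternatively activated macrophages, was rare in all groups but Fcgr2b-/-. Wild-type libraries held 8 to 11 reads of it (0.264, 0.335 and 0.302 CPM) and Fcgr2b-/- libraries 426 to 1152 reads (12.2, 14.1 and 34.8 CPM). The rise was 3.89 ± 0.37 (adjusted p = 1.44e-05). The deposited genes were already filtered by a rule that is not given, and only Fcgr2b-/- libraries held more than 1.11 CPM of Arg1. Its row may thus be present only through that group, so the p-value does not support the direction. The 3 double-mutant values of 1.11, 0.0947 and 0.359 CPM spanned those of wild-type, the middle one resting on 2 reads. Arg1 differed from Fcgr2b-/- by -3.72 ± 0.37, and its difference of 0.17 ± 0.37 from wild-type did not pass (adjusted p = 0.778).

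**Figure D2:**
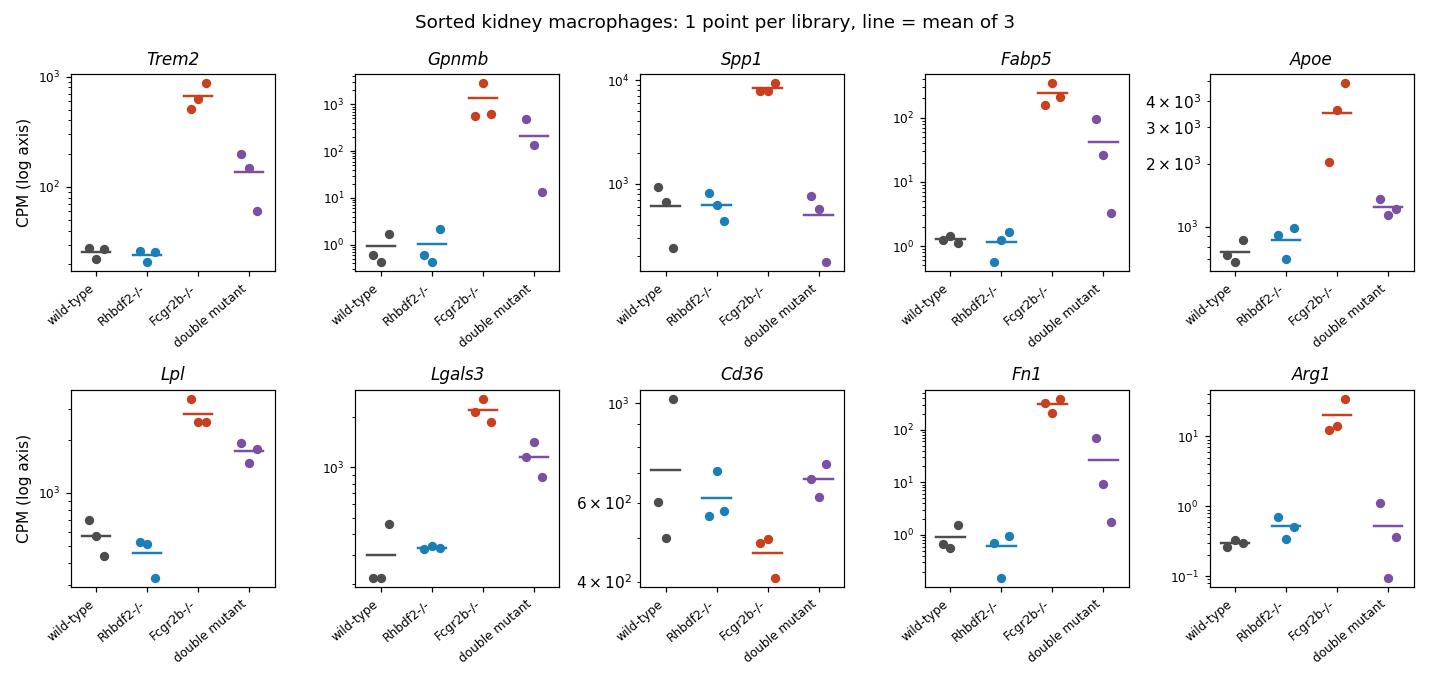
CPM (log axes) of the 10 genes in sorted kidney macrophages by genotype, 1 point per library and a line at the mean of 3. Trem2, Gpnmb, Fabp5, Fn1, Lpl and Lgals3 in double-mutant cells lie between wild-type and Fcgr2b-/- libraries, Spp1 and Arg1 lie at the wild-type level, and Cd36 is lowest in Fcgr2b-/- (408 to 497 CPM).

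Set side by side, the 10 genes split by how far the double mutant stood from Fcgr2b-/-. Of the Fcgr2b-/- minus wild-type difference in log2(CPM+1), 108% was absent in the double mutant for Spp1, 99.7% for Cd36 and 95.6% for Arg1. On this scale these 3 were near wild-type levels or slightly past them. The Cd36 share divides by a difference that was not called (limma, adjusted p = 0.0513). The share absent was 66.6% for Apoe, 62.4% for Fn1, 52.6% for Trem2 and 50.4% for Fabp5. It was least for Gpnmb, Lgals3 and Lpl, at 36.8%, 31.9% and 30.3%. These shares are ratios of differences that use the same Fcgr2b-/- and wild-type libraries, and differences between genes in the share were not tested. They also depend on the pseudocount for genes this low in wild-type. In the authors' deposited table the Fcgr2b-/- rises were 8.41 for Fn1, 7.58 for Fabp5, 10.57 for Gpnmb and 6.21 for Arg1. There the double mutant differed from Fcgr2b-/- by -3.51, -2.51, -2.69 and -5.35. On that scale the shares of these genes are smaller and the order of the genes differs. In the double mutant against Fcgr2b-/-, 9 of the 10 were called lower and Cd36 was not called, beside 13.8% of all genes called lower and 15.8% called higher, and nothing is read from that count. With median-of-ratios scaling the split of all genes turned, from 1663 higher and 1450 lower to 1409 and 1733. The calls against Fcgr2b-/- ended for Gpnmb without Fcgr2b-/- replicate 2 or double-mutant replicate 3, in a fit of those groups alone and in the authors' deposited table. They ended for Lgals3 without the same 2 libraries, and for Lpl without Fcgr2b-/- replicate 1 or double-mutant replicate 2 or 3. The count of members called was 6 without double-mutant replicate 3. Without overlap, 9 of the 10 lay below Fcgr2b-/- and Cd36 above it, beside 20.5% and 21.2% of all genes.

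Against wild-type, 6 of the 10 remained raised in double-mutant macrophages (Fabp5, Fn1, Gpnmb, Lgals3, Lpl and Trem2), beside 9.88% of all genes called higher and 8.58% lower. Those 6 and Apoe lay above wild-type without overlap, beside 17.4% of all genes above and 15% below. The same 6 were raised against Rhbdf2-/- macrophages, beside 9.20% called higher and 9.03% lower, and 7 lay above without overlap, beside 20.5% above and 20.8% below, with Gpnmb up 5.69 ± 0.99 (adjusted p = 0.00589) and Lpl up 1.95 ± 0.22 (adjusted p = 0.000456). Both comparisons use the same double-mutant libraries. With voom on the recovered reads 3 of the 10 were called in each. Double-mutant replicate 1 was the highest of its group for 8 of the 10 genes, all but Lgals3 and Cd36, and replicate 3 the lowest for 6. The double mutants thus did not form a tight group: the ratio of highest to lowest library was 1.19 for Apoe and Cd36, 1.29 for Lpl and 1.62 for Lgals3, but 29.8 for Fabp5, 35.1 for Gpnmb and 39.8 for Fn1.

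For loss of Rhbdf2 alone no change in the 10 genes passed the test. None was called in Rhbdf2-/- against wild-type macrophages (limma, 0 of 10, and 0 of 10 at an unadjusted p below 0.05), and voom and the authors' deposited table also gave 0, beside 0.019% of all genes called higher and 0% lower. The changes ran from -0.32 ± 0.22 for Lpl to 0.24 ± 0.26 for Lgals3. For Gpnmb, Fabp5 and Fn1 the SE of 0.80 to 0.99 leaves room for sizeable changes in either direction. Only Arg1 had groups that did not overlap (0.264 to 0.335 CPM against 0.337 to 0.705 CPM), where 6.05% of all genes lay above and 4.37% below without overlap.

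The effect of Rhbdf2 loss in Fcgr2b-/- cells minus its effect in wild-type cells was -4.48 ± 0.76 for Spp1, -4.29 ± 1.17 for Fn1, -3.93 ± 0.53 for Arg1, -2.34 ± 0.48 for Trem2 and -1.60 ± 0.37 for Apoe. These 5 passed the interaction test, beside 5.89% of all genes called lower and 6.03% higher. Gpnmb (-3.41 ± 1.40), Fabp5 (-3.24 ± 1.13), Lgals3 (-1.19 ± 0.37), Lpl (-0.38 ± 0.31) and Cd36 (0.69 ± 0.31) did not pass. The term contains the comparison of double mutant with Fcgr2b-/- in which such genes had been noted, so its p-values are not given. The call for Fn1 ended in 9 of the 12 fits that left out 1 library (all but those without wild-type replicate 3 and double-mutant replicates 1 and 3), with a pseudocount of 0.25 and with voom. The count of genes that passed was 3 without Rhbdf2-/- replicate 1.

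Per kilobase of exon, Apoe and Spp1 led in wild-type macrophages, at 382 ± 49.7 and 372 ± 212 CPM per kb (SD, n = 3), and overlapped each other, and Spp1 also overlapped Cd36. Cd36 (180 CPM per kb) and Lgals3 (160 CPM per kb) followed and also overlapped, then Lpl at 83.1 CPM per kb. Trem2 stood apart from its neighbours at 5.24 CPM per kb, and Fabp5, Gpnmb, Arg1 and Fn1 were all below 1. In Fcgr2b-/- cells Spp1 was first at 5073 ± 538 CPM per kb with no overlap with Apoe at 1771 ± 716 CPM per kb, which overlapped Lgals3 at 1183 ± 193 CPM per kb. Gpnmb, number 8 in the wild-type order, was number 5 here, overlapping Lpl before it (417 CPM per kb) and Trem2 after it (136 CPM per kb). In the double mutant Apoe and Lgals3 led together, at 624 ± 54.3 and 621 ± 147 CPM per kb, and Spp1 followed at 306 ± 183 CPM per kb.

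The wider lipid handling and lysosome list, which excludes the 10 genes, had 29 of its 30 genes in the macrophage table. In Fcgr2b-/- against wild-type 25 rose and 1 fell, beside 24.2% and 28.5% of all genes, with a median change of 1.80 against -0.09 for all genes. By smallest p these were Igf1, a growth factor of tissue macrophages, up 2.94 ± 0.16 (adjusted p = 6.22e-07), the phospholipid transfer protein Pltp, up 2.07 ± 0.15 (adjusted p = 1.73e-06), the lysosomal tetraspanin Cd63, up 2.00 ± 0.14 (adjusted p = 1.91e-06), and the scavenger receptor Msr1, up 2.42 ± 0.18 (adjusted p = 2.64e-06). The gene that fell was Axl, a receptor for dying cells, which was picked out after its value was seen, at -0.79 ± 0.17 on the log2 scale (adjusted p = 0.002). In double-mutant cells 17 of the 29 rose over wild-type and none fell, beside 9.88% and 8.58% of all genes, and 16 of the 17 had also risen in Fcgr2b-/- cells. The exception was Pparg, which was at 0.33 ± 0.19 in Fcgr2b-/- against wild-type (adjusted p = 0.154). The 17 were led by Pltp (2.36 ± 0.15, adjusted p = 3.92e-06), the lipid-sensing nuclear receptor LXR alpha from Nr1h3 (3.99 ± 0.39, adjusted p = 0.000129), the nuclear receptor Pparg (1.67 ± 0.19, adjusted p = 0.000309) and the lysosomal acid lipase Lipa (1.02 ± 0.11, adjusted p = 0.000327). Against Fcgr2b-/-, 17 were called lower and 3 higher, beside 13.8% and 15.8% of all genes, with a median of -0.80 against 0.04 for all genes. Such a list had already been noted in that comparison, so nothing is read from these counts or this median. Nr1h3 averaged 120 ± 38.1 CPM in Fcgr2b-/- and 137 ± 68.5 CPM in double-mutant cells (SD, n = 3), whereas Msr1 averaged 711 ± 177 and 154 ± 25.7 CPM and the protease gene Ctsl 742 ± 248 and 152 ± 27.9 CPM. Of these named genes, Nr1h3 was near its Fcgr2b-/- level in the double mutant. Msr1 and Ctsl were nearer to their wild-type levels of 131 ± 20.6 and 105 ± 26.1 CPM.

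The alternative activation and repair list had 17 of its 22 genes in the macrophage table, of which 10 rose and 1 fell in Fcgr2b-/- against wild-type, where 24.2% of all genes rose and 28.5% fell. The median of the list was 0.75. They included the second arginase Arg2 (up 3.10 ± 0.38, adjusted p = 5.75e-05), the matrix proteins Tgfbi (up 1.34 ± 0.18, adjusted p = 0.000103) and Thbs1 (up 2.37 ± 0.40, adjusted p = 0.0005), and the cytokine Il10 (up 2.41 ± 0.38, adjusted p = 0.000278). In the double mutant against wild-type only Il10 rose (1.71 ± 0.38, adjusted p = 0.0126) and only Gas6, a bridging ligand for dying cells, fell (-1.55 ± 0.32, adjusted p = 0.0103). Against Fcgr2b-/-, 8 of the 17 were called lower and 1 higher, beside 13.8% and 15.8% of all genes, with a median of -0.84. As that comparison was known when the list was chosen, nothing is read from these counts or this median. Arg2 averaged 1.24 ± 0.71 CPM in wild-type, 18.5 ± 7.93 CPM in Fcgr2b-/- and 2.40 ± 1.18 CPM in double-mutant macrophages (SD, n = 3).

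Of 23 partners and receptors of the 10 genes, 19 were listed in macrophages, and 9 rose and 4 fell in Fcgr2b-/- against wild-type, beside 24.2% and 28.5% of all genes, with a median of 0.36. Apoc2, the cofactor of lipoprotein lipase, rose by 6.21 ± 0.52 (adjusted p = 5.41e-06) and the apolipoprotein E receptor Lrp1 by 3.01 ± 0.31 (adjusted p = 1.86e-05). The osteopontin receptor Cd44 rose by 1.18 ± 0.18 (adjusted p = 0.000234), while the integrin subunit Itga9, another osteopontin receptor chain, fell (-1.50 ± 0.17, adjusted p = 4.03e-05). Double-mutant Apoc2 was still 3.46 ± 0.52 above wild-type (adjusted p = 0.00193), and 7 of the 19 rose while none fell, beside 9.88% and 8.58% of all genes. Against Fcgr2b-/- the list split evenly, with 4 genes called higher and 4 lower, beside 15.8% and 13.8% of all genes. Nothing is read from that split either, for the same reason as in the lists above.

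Markers of other cells differed between the macrophage groups as well. Of 10 macrophage markers 5 rose and none fell in Fcgr2b-/- against wild-type, beside 24.2% and 28.5% of all genes. Their summed levels were 24514 to 33574 CPM in wild-type, 45513 to 59636 CPM in Fcgr2b-/- and 39012 to 45267 CPM in double-mutant libraries. Of 6 listed monocyte markers the table held 5, whose sum was 360 to 856 CPM in wild-type, 696 to 1207 CPM in Fcgr2b-/- and 666 to 1217 CPM in double-mutant libraries, without Ly6c2. Dendritic cell markers (6 of 7 listed, without Flt3) summed to 55.2 to 103 CPM in wild-type, 7.16 to 18.5 CPM in Fcgr2b-/- and 103 to 212 CPM in double-mutant libraries. T and NK cell markers (6 of 9 listed) summed to 250 to 320, 42.4 to 76.5 and 254 to 399 CPM in the same order. The part of any of these cells in the changes of the 10 genes was not tested.

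In whole kidney, all 9 listed genes were called between Fcgr2b-/- and wild-type, 7 higher and 2 lower, beside 29.5% and 30.8% of all 12315 genes. Without overlap 6 lay above and 2 below, beside 25.3% and 26.4%. The genes were named with this comparison known, so nothing is read from these counts. Trem2 was at 0.412, 0.606, 0.801 and 0.631 CPM in the 4 wild-type kidneys, from 13 to 27 reads each, and at 25.3, 14.3, 35.6 and 24.6 CPM in Fcgr2b-/- kidneys. It was 3.95 ± 0.36 higher with no overlap. Double-mutant kidneys held 5.31, 5.08, 5 and 0.771 CPM, 3 of them close together and the fourth within the wild-type range. Trem2 fell by 2.46 ± 0.36 on the log2 scale between Fcgr2b-/- and double-mutant kidneys (adjusted p = 0.000108). Rhbdf2-/- kidneys held 0.266 to 1.37 CPM. The Trem2 row may thus have passed the unstated filter only through Fcgr2b-/- and double-mutant kidneys, so its kidney p-values do not support a direction.

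Gpnmb in kidney held 0.619, 1.18, 0.458 and 0.42 CPM in wild-type, from 13 to 38 reads, and 36.6, 11.4, 66.4 and 28.8 CPM in Fcgr2b-/-. It was 4.24 ± 0.49 higher there, again with no overlap. Double-mutant kidneys held 5.53, 3.46, 11 and 0.913 CPM, each of them below every Fcgr2b-/- kidney. The change was -2.61 ± 0.49 (adjusted p = 0.00068). With 0.325 to 0.56 CPM in Rhbdf2-/- kidneys, Gpnmb has the same limit from the filter as Trem2, and its kidney p-values do not support a direction.

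Spp1 was abundant in kidney even in wild-type, at 3156, 2953, 2800 and 2796 CPM. Fcgr2b-/- kidneys held 15202, 8203, 14910 and 12748 CPM, which is 2.09 ± 0.21 higher, and double-mutant kidneys 5833, 3897, 3432 and 2914 CPM. The lowest double-mutant kidney lay in the wild-type range and the other 3 above it, and the change from Fcgr2b-/- was -1.68 ± 0.21 (adjusted p = 3.46e-05). Injured tubule markers, including Havcr1 and Lcn2, summed to 523 to 631 CPM in wild-type, 1658 to 4131 CPM in Fcgr2b-/- and 443 to 642 CPM in double-mutant kidneys (8 of 8 listed). Their part in the Spp1 level was not tested.

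Lgals3 stood at 45.3, 48, 48.5 and 43.6 CPM in wild-type, 243, 206, 302 and 325 CPM in Fcgr2b-/- and 106, 89.3, 106 and 54.9 CPM in double-mutant kidneys, with no overlap among the 3 groups. It was 2.49 ± 0.19 higher in Fcgr2b-/- and fell by 1.61 ± 0.19 from there to the double mutant (adjusted p = 1.52e-05). Apoe followed the same order, at 386 to 512 CPM in wild-type, 1591 to 2927 CPM in Fcgr2b-/- and 731 to 1076 CPM in double-mutant kidneys. It was 2.21 ± 0.18 higher in Fcgr2b-/- and fell by 1.27 ± 0.18 in the double mutant against it (adjusted p = 8.16e-05).

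Fn1 in kidney was at 32.6 to 68.4 CPM in wild-type, 176 to 403 CPM in Fcgr2b-/- and 17.7 to 83.1 CPM in double-mutant libraries. The double mutant spanned the wild-type range, with a change from Fcgr2b-/- of -2.37 ± 0.43 (adjusted p = 0.000522). Fibroblast markers (9 of 9 listed) summed to 283 to 373 CPM in wild-type, 771 to 1801 CPM in Fcgr2b-/- and 215 to 758 CPM in double-mutant kidneys, and their part in the Fn1 level was not tested. Fabp5 changed least, from 5.78 to 6.87 CPM in wild-type to 6.5 to 12.8 CPM in Fcgr2b-/-, with overlap and a difference of 0.61 ± 0.23. That call ended without any 1 of 6 libraries (wild-type or Fcgr2b-/- replicates 1, 3 and 4), which left 8 of the 9 genes called. Its difference between double mutant and Fcgr2b-/- did not pass (-0.29 ± 0.23, adjusted p = 0.319).

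Lpl and Cd36 were the 2 genes with less RNA in Fcgr2b-/- kidneys. Lpl held 462, 622, 512 and 979 CPM in wild-type and 274, 276, 177 and 238 CPM in Fcgr2b-/-, a difference of -1.37 ± 0.26. In sorted macrophages Lpl had moved the opposite way, though the tables were normalized separately and were not compared by a test. It rose by 0.86 ± 0.26 in double-mutant against Fcgr2b-/- kidneys (389, 462, 395 and 498 CPM, adjusted p = 0.0138). Cd36 was at 166, 199, 248 and 220 CPM in wild-type and 107, 118, 95.6 and 106 CPM in Fcgr2b-/-, a difference of -0.95 ± 0.14, and rose to 210, 177, 199 and 291 CPM in the double mutant (1.01 ± 0.14, adjusted p = 7.6e-05). Adipocyte markers (6 of 7 listed, without Lep) varied widely within every group, with sums of 23.5 to 149 CPM in wild-type and 2.03 to 228 CPM in Fcgr2b-/- kidneys. Proximal tubule markers (10 of 10 listed) summed to 32121 to 35566 CPM in wild-type, 7780 to 16508 CPM in Fcgr2b-/- and 23849 to 28115 CPM in double-mutant kidneys, and the part of either in Lpl or Cd36 was not tested.

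**Figure D3:**
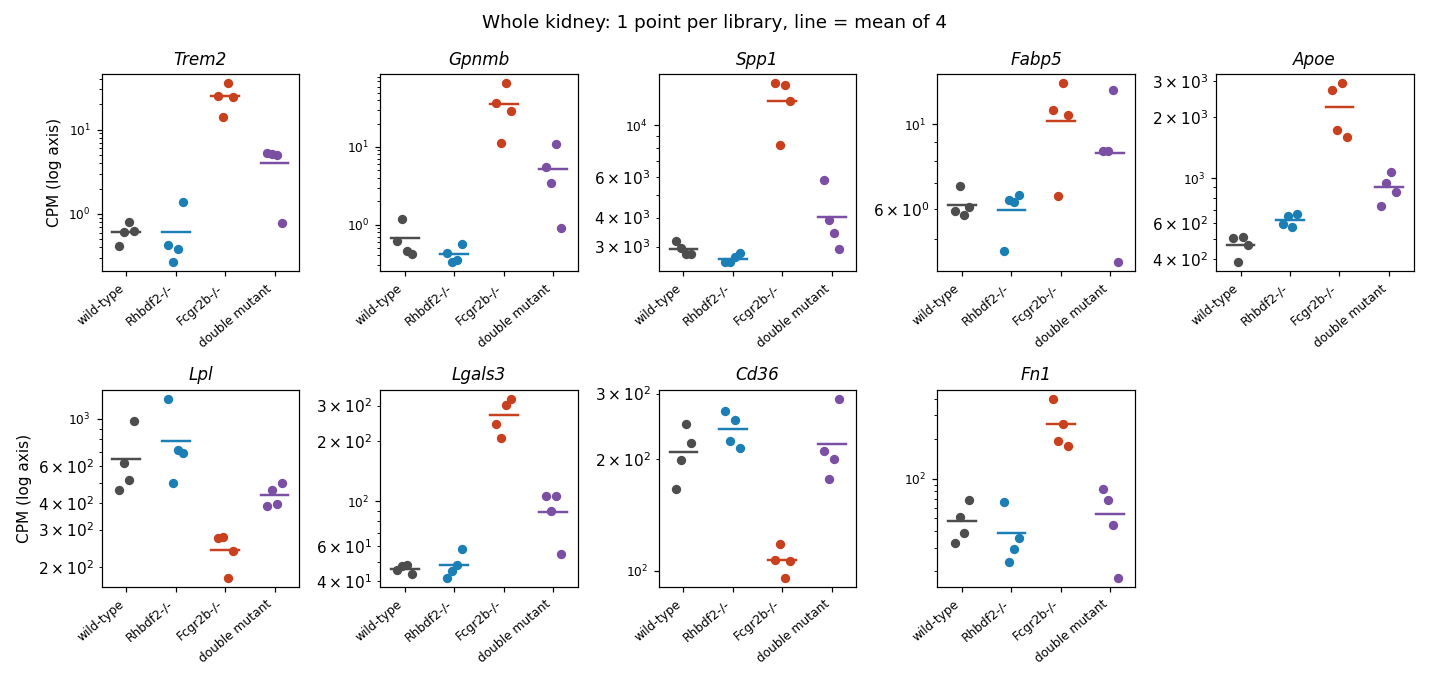
CPM (log axes) of the 9 listed genes in whole kidney by genotype, 1 point per library and a line at the mean of 4; Arg1 has no row there. The Fcgr2b-/- kidneys are highest for 6 genes without overlap with wild-type, Lpl and Cd36 are lowest in them, and Fabp5 overlaps.

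Between Fcgr2b-/- and double-mutant kidneys, 6 of the 9 genes fell and 2 rose, beside 22.8% and 22.5% of all genes, and the same 8 had groups that did not overlap, beside 17.2% of all genes below and 16.3% above. This comparison shares its Fcgr2b-/- libraries with the one before it. The share of the Fcgr2b-/- minus wild-type difference absent in the double mutant was 107% for Cd36, 99.4% for Fn1 and 80.3% for Spp1. It lay between 57.4% for Apoe and 64.6% for Lgals3 for Trem2, Gpnmb, Lpl and those 2, and was 47.0% for Fabp5. For Trem2 and Gpnmb, which were low in wild-type, the share depends on the pseudocount. In the authors' deposited table their Fcgr2b-/- rises were 5.41 and 5.80. The double mutant differed from Fcgr2b-/- by -2.62 and -2.78 there, so both shares are smaller and fall below that band.

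Against wild-type, 3 of the 9 rose in double-mutant kidneys, beside 4.52% of all genes called higher and 2.77% lower: Apoe by 0.94 ± 0.18 (adjusted p = 0.0131), Lgals3 by 0.88 ± 0.19 (adjusted p = 0.0169) and Trem2 by 1.48 ± 0.36 (adjusted p = 0.0277). Gpnmb, at 1.63 ± 0.49, missed the threshold (adjusted p = 0.058). Only Apoe and Lgals3 had groups that did not overlap, beside 6.59% of all genes above and 11.3% below. The call for Trem2 ended with voom (adjusted p = 0.133), in a fit of those 2 groups alone (adjusted p = 0.0509) and without any 1 of 7 libraries, the 4 wild-type ones and double-mutant replicates 1, 2 and 3 (adjusted p = 0.0527 to 0.0964). The count fell to 1 without wild-type replicate 1 or 4 or without double-mutant replicate 2 or 3. Double-mutant replicate 4 was the lowest of its group for 6 of the 9 genes and also had the lowest macrophage marker sum, 372 CPM against 917 to 1623 CPM in the other 3. Without it Gpnmb rose by 2.10 (adjusted p = 0.00497).

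Against Rhbdf2-/- kidneys 2 of the 9 rose, Lgals3 by 0.84 ± 0.19 (adjusted p = 0.034) and Trem2 by 1.53 ± 0.36 (adjusted p = 0.0403), beside 2.32% of all genes called higher and 1.18% lower. Without overlap 3 lay above and 1 below, beside 5.30% and 10.4% of all genes. For all genes the split was 286 higher and 145 lower, and 288 and 85 with median-of-ratios scaling. The count of members depended on single libraries: it was 0 without Rhbdf2-/- replicate 1, 2 or 3 or without double-mutant replicate 1, 2 or 3, 1 without any wild-type library, and 4 without double-mutant replicate 4. It was also 0 with voom and in a fit of those 2 groups alone.

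In Rhbdf2-/- against wild-type kidneys none of the 9 was called (limma, 0 of 9), nor by voom or in the authors' deposited table, beside 0% of all genes. At an unadjusted p below 0.05 there was 1, Apoe, which was higher by 0.42 ± 0.18 without overlap (573 to 668 CPM against 386 to 512 CPM, adjusted p = 1), where 2.53% of all genes lay above and 3.20% below without overlap. For the effect of Rhbdf2 loss in Fcgr2b-/- minus that in wild-type kidneys, 6 genes were called lower and 1 higher, beside 13.9% of all genes in each direction. They were Trem2 (-2.42 ± 0.52), Gpnmb (-2.39 ± 0.70), Fn1 (-2.02 ± 0.61), Apoe (-1.68 ± 0.26), Lgals3 (-1.65 ± 0.26), Spp1 (-1.54 ± 0.30) and Cd36 (0.80 ± 0.20). Lpl (0.59 ± 0.37) and Fabp5 (-0.24 ± 0.32) did not pass. The term holds the Fcgr2b-/- against wild-type difference in which Gpnmb had been noted, so no p-values are given.

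**Figure D4:**
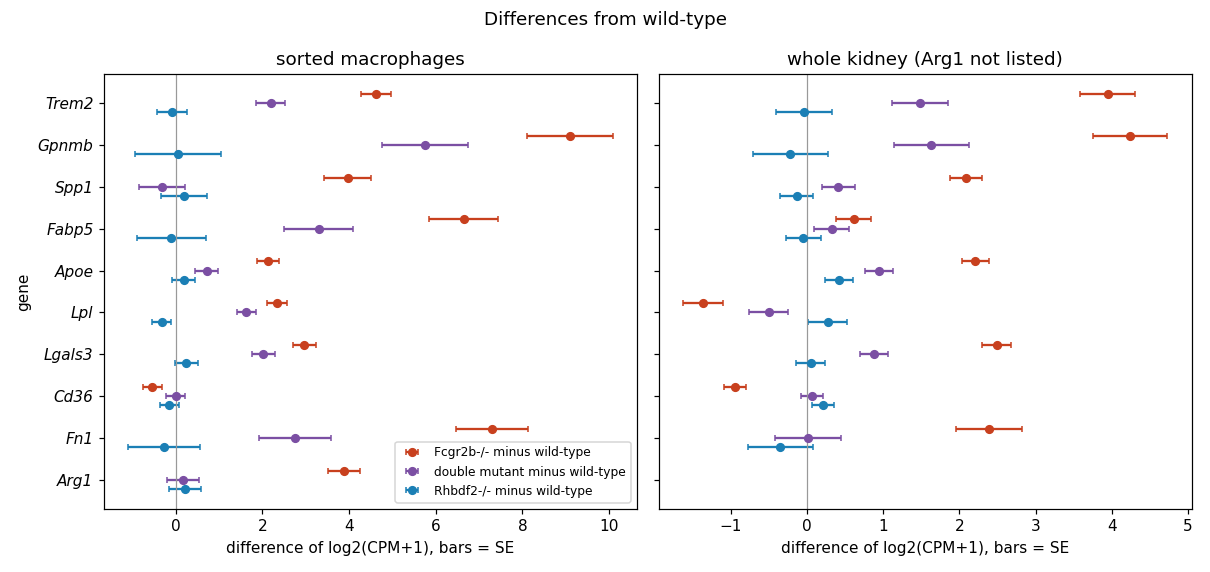
Difference from wild-type in log2(CPM+1) for Fcgr2b-/-, double-mutant and Rhbdf2-/- libraries, with SE bars from limma, in sorted macrophages (left, n = 3 per group) and whole kidney (right, n = 4 per group). Rhbdf2-/- points lie near 0, Fcgr2b-/- points reach 9.09 for Gpnmb in macrophages, and double-mutant points lie between them for most genes but near 0 for Spp1, Cd36 and Arg1 in macrophages and for Fn1 and Cd36 in kidney.

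Macrophage marker RNA differed with genotype in the kidney libraries. All 10 macrophage markers were called higher in Fcgr2b-/- than in wild-type kidney, beside 29.5% of all genes. Their sums were 223 to 270 CPM in wild-type, 231 to 359 CPM in Rhbdf2-/-, 944 to 2576 CPM in Fcgr2b-/- and 372 to 1623 CPM in double-mutant kidneys. Between Fcgr2b-/- and double mutant 2 of the 10 were called lower, beside 22.8% of all genes. The median change of the 10 markers was -0.72, and the sums overlapped. The part of macrophage content in the levels of the 9 genes was not tested.

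Per kilobase, Spp1 led in every kidney group, at 1776 ± 103 CPM per kb in wild-type and 7746 ± 1962 CPM per kb in Fcgr2b-/- (SD, n = 4), with Apoe second at 236 ± 29.4 and 1129 ± 341 CPM per kb. In wild-type the order went on with Lpl, Cd36, Lgals3, Fn1 and Fabp5 without overlap between neighbours, and Gpnmb and Trem2 overlapped at the bottom at 0.176 and 0.124 CPM per kb. In Fcgr2b-/- kidneys Lgals3 followed Apoe at 145 CPM per kb, and from Lpl (35.4 CPM per kb) down to Fabp5 (2.86 CPM per kb) each gene overlapped the next.

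The wider lists were also counted in kidney. They too were chosen with Fcgr2b-/- against wild-type kidney known, so nothing is read from their counts and medians in that comparison. Of 28 listed lipid handling and lysosome genes, 18 were higher and 3 lower in Fcgr2b-/- than in wild-type, beside 29.5% and 30.8% of all genes. In the double mutant against Fcgr2b-/- 8 fell and 3 rose, beside 22.8% and 22.5% of all genes. The 2 comparisons had list medians of 0.55 and -0.26 against -0.01 and 0.00 for all genes. The genes that fell included the lysosomal protease Ctsd (-1.15 ± 0.12, adjusted p = 7.84e-06), the tetraspanin Cd9 (-1.09 ± 0.12, adjusted p = 1e-05) and the macrophage elastase Mmp12 (-2.05 ± 0.39, adjusted p = 0.000669), as well as the cholesterol exporter Abca1 (adjusted p = 0.000741). Against wild-type 4 rose in double-mutant kidneys, where 4.52% of all genes did, Msr1 by 1.82 ± 0.33 (adjusted p = 0.0112), the TREM2 adaptor Tyrobp by 1.82 ± 0.42 (adjusted p = 0.0223), Mmp14 by 1.20 ± 0.34 (adjusted p = 0.0458) and Itgax by 1.61 ± 0.46 (adjusted p = 0.0469).

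Of 15 listed alternative activation and repair genes in kidney, 10 were higher and 4 lower in Fcgr2b-/- than in wild-type, beside 29.5% and 30.8% of all genes. Between Fcgr2b-/- and double mutant 9 fell and 1 rose, beside 22.8% and 22.5%, led by the chitinase-like Chil3 (-2.47 ± 0.26, adjusted p = 6.99e-06), the growth factors Pdgfa (-1.23 ± 0.16, adjusted p = 4e-05) and Pdgfb (-1.21 ± 0.20, adjusted p = 0.000207), and Thbs1 (-1.13 ± 0.18, adjusted p = 0.000205). Of 20 listed partners and receptors, 14 were higher and 3 lower in Fcgr2b-/- and 8 fell and 2 rose in the double mutant, against the same shares of all genes. The integrin chains Itga5 and Itgb3, which bind fibronectin and osteopontin, fell (-1.60 ± 0.16, adjusted p = 3.99e-06, and -1.61 ± 0.18, adjusted p = 1.24e-05). The apolipoprotein receptor Lrp2, which the proximal tubule makes in quantity, rose by 1.50 ± 0.24 (adjusted p = 0.000185).

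The genes most like Trem2, Gpnmb, Spp1 and Apoe over all libraries of a tissue are given as a description by Pearson correlation of log2(CPM+1). All points share library, depth and genotype. In the 12 macrophage libraries Trem2 was closest to Cstb (r = 0.997), an inhibitor of lysosomal proteases, then Clec4d, Apoc2, Calm2 and Aldh1b1 (r = 0.990 to 0.994). Gpnmb was closest to Anpep (r = 0.990), then Gm5150, Gpr137b, Anxa4 and Plxnd1. Spp1 had a different set, 2010107E04Rik (r = 0.983), Ndufs6, Timm8b, Tceal8 and Ndufs5, of which Ndufs6 and Ndufs5 encode subunits of respiratory complex I. Apoe was closest to Ecm1 (r = 0.987), followed by 1810058I24Rik, Rps3a1, Eef1b2 and Txndc17. In the 16 kidney libraries Trem2 and Gpnmb were both closest to Arpc1b (r = 0.992 and 0.982), an actin-branching subunit, Spp1 to Anxa3 (r = 0.988) and Apoe to Arpc2 (r = 0.972). Among the genes themselves, Trem2 went with Gpnmb at r = 0.971 in macrophages and 0.978 in kidney, while Gpnmb and Spp1 were at 0.703 in macrophages and 0.946 in kidney.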

How the data were processed

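RNA was sequenced from 16 whole kidney libraries and 12 sorted macrophage libraries, with a TruSeq kit for kidney and a SMART-Seq v4 kit for macrophages, per the labels' protocols. The deposited expression values are log2 CPM per library computed by the authors, per the file headers. A small prior count and a filter of genes are read from the values and rows, since the headers state neither. Log2 fold changes and FDR values (adjusted p-values) were deposited by the authors for 4 comparisons in each table, per the file headers, beside exon lengths in bases. The builds mm10 and GRCm38 come from the submitters' processing notes; for aligner, counting program and strand use, nothing is stated in the labels or headers. No 2 libraries were identical (0 pairs).

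CPM is the antilog of the deposited value. Whole reads were recovered from the low values, all of which came out whole (100%, tolerance 0.1 read); 0 reads correspond to 0.0285 CPM in kidney and 0.03 CPM in macrophages. Intervals between libraries cover the spread of the libraries, and read numbers cover counting error only. log2(CPM+1) was fitted with limma 3.58.1 (eBayes with a trend) in R 4.3.3, all 4 groups of a tissue together, each tissue apart because they were normalized separately. Genes were called at an adjusted p below 0.05 over all genes of the table. Fold changes on this scale understate low genes. Double-mutant libraries were grouped by their genotype label, since their titles name only the Rhbdf2 knockout. Replicate numbers follow accession order; a block by title letter was added as an alternative for Rhbdf2-/- against wild-type macrophages. The tests were tried on simulated data first.

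All 10 members are named whatever their result, with up to 4 called genes of smallest p per wider list and comparison and the 5 genes most like 4 of the members (mean log2 CPM of at least 1). Members and lists were chosen with earlier results of these data known. Emr1 and Igj in the files stand for Adgre1 and Jchain. The alternatives tried were a pseudocount of 0.25, a minimum mean log2 CPM of 1, median-of-ratios scaling, voom on the recovered reads, fits of 2 groups only, the authors' table, and leaving out each library.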

Additional observations from a re-analysis of the deposited data

Results flagged for a closer look

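A library lay apart from its group in 3 of 36 groups of 4 kidney values tested by Dixon's criterion, which chance alone reaches in about 1 of 20 groups. Trem2 in Rhbdf2-/- replicate 4 was 1.37 CPM, against 0.266 to 0.43 CPM in the other kidneys of that genotype. Fabp5 in Rhbdf2-/- replicate 1 was 4.66 CPM, below the 6.26 to 6.53 CPM of the others. Trem2 in double-mutant replicate 4 was 0.771 CPM, below the 5 to 5.31 CPM of the others, and that kidney also had the lowest macrophage marker sum of its group (372 CPM). The part of macrophage content in that value was not tested.

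For 7 genes in kidney and 5 in macrophages the interaction test called a difference in the effect of Rhbdf2 loss between the Fcgr2b-/- and wild-type backgrounds. Of all genes, 13.9% were called in each direction in kidney, and 5.89% lower and 6.03% higher in macrophages. The term contains comparisons known when the genes were named, so these calls are no independent support. In kidney the differences in log2 change were -2.42 for Trem2, -2.39 for Gpnmb, -1.54 for Spp1, -1.68 for Apoe, -1.65 for Lgals3, 0.80 for Cd36 and -2.02 for Fn1. In macrophages they were -2.34 for Trem2, -4.48 for Spp1, -1.60 for Apoe, -4.29 for Fn1 and -3.93 for Arg1. With voom on the recovered reads the kidney differences of Trem2 and Gpnmb and the macrophage differences of Fn1 and Arg1 did not pass.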

How the results depend on the processing

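No called change reversed direction under any alternative run. For changes of single genes, 822 of 864 results without 1 library kept direction and call in kidney and 679 of 720 in macrophages, and so did 286 of 297 and 305 of 324 results under the other settings but the replicate block. In kidney, members called in the double mutant against wild-type ranged from 1 to 4 without 1 library, and against Rhbdf2-/- from 0 to 4. The latter count was 0 with voom on the recovered reads and 0 in a fit of 2 groups only. In macrophages voom called 3 members in the double mutant against wild-type, 3 against Rhbdf2-/- and 3 in the interaction, which ranged from 3 to 7 without 1 library. The cause was not tested. Over all kidney genes voom called 77 in place of 431 between double mutant and Rhbdf2-/- and 479 in place of 898 between double mutant and wild-type. Depth limits Arg1, which rests on 8 to 11 reads a library in wild-type macrophages. Replicate numbers follow accession order and pair nothing, but titles of wild-type and Rhbdf2-/- macrophages share the letters a and b. In an alternative added after seeing the data, with the letter as a replicate block, 0 of the 10 genes were called between those groups, as without it, and 2 of all genes in either fit. Deviations from the group means correlated across 10179 genes at 0.24 for a and 0.026 for b, and neither library pair was the best match of both its members, so the letters are not taken as pairs. Replicate 3 of both groups shares a number in the headers, WT_2 and iR2_2KO3, and their deviations correlated at 0.083. Both were highest of their group for Gpnmb, Apoe and Fn1 and lowest for Spp1 and Lpl. Fabp5 was lowest in the wild-type and highest in the Rhbdf2-/- library. A block by that number was not tested. For the other groups no paired analysis was possible because their titles share no number or letter.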
